A study of Homo sapiens with 6 samples.

Results

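The transcripts of the oxygen-sensing pathway were followed in MDA-MB-231, an invasive human cell line that was derived from a triple-negative breast cancer. The set holds the 3 alpha subunits of the hypoxia-inducible factor HIF (HIF1A, EPAS1 and HIF3A) and its beta subunits (ARNT and ARNT2). It also holds the 3 prolyl hydroxylases (EGLN1, EGLN2 and EGLN3), the asparaginyl hydroxylase HIF1AN and the recognition subunit VHL. Members were the probe sets whose platform annotation gives one of these 10 symbols and no other, which came to 31 of 54613 probe sets, and the 10 genes stood among 19775 named genes. The knockdown group was 3 single clones infected with a pSM2 retroviral vector expressing a short hairpin RNA against WASF3, which encodes an activator of branched actin growth. The control group was 3 single clones carrying the empty vector or a hairpin against GFP. All 6 clones were puromycin resistant, were labelled as passage 4 and had been selected in puromycin for 2 weeks, so cells of both groups carried a vector. Which of the 2 hairpins or of the control vectors each clone carried, and the oxygen level of the cultures, are not given in the sources used here. One array was read for each clone, and each clone descends from a single cell.

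HIF is a pair of an oxygen-regulated alpha subunit and a stable beta subunit that binds hypoxia response elements next to its target genes. In oxygenated cells EGLN enzymes hydroxylate prolines of the alpha subunit, VHL then binds it as part of a ubiquitin ligase, and the subunit is degraded, while HIF1AN hydroxylates an asparagine and blocks the binding of coactivators. Oxygen therefore acts mainly on the alpha proteins, which an expression array does not measure. EGLN1 and EGLN3 are themselves HIF targets, which closes a feedback loop. In breast cancer HIF1A is known for driving glycolytic genes, and both HIF1A and EPAS1 for driving angiogenic genes.

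The sequences just before the transcription start were taken for the 3 genes that the results turn on, and for EGLN1 as the other EGLN gene known as a HIF target. They come from RefSeq on GRCh38.p14, run 5′ to 3′ on the strand of the gene and end at the base before its start. Capitals mark the core letters of the hypoxia response element, ACGTG or GCGTG, on either strand.
EGLN3, chr14:33951075-33951324, minus strand: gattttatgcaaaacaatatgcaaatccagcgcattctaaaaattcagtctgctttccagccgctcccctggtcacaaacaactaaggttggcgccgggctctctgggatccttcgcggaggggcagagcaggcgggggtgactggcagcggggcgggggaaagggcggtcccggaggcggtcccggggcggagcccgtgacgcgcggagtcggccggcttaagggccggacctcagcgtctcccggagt
EPAS1, chr2:46297157-46297406, plus strand: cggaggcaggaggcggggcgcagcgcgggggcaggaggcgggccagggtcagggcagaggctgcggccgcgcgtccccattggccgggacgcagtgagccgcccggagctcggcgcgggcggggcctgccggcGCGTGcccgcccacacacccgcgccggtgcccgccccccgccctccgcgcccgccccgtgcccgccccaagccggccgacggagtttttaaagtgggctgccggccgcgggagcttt
HIF1A, chr14:61695263-61695512, plus strand: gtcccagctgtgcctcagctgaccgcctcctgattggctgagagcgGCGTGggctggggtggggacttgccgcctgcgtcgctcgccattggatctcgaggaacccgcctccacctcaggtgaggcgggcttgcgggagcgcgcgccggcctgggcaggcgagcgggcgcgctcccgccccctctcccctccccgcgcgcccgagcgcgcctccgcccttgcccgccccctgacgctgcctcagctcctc
EGLN1, chr1:231422288-231422537, minus strand: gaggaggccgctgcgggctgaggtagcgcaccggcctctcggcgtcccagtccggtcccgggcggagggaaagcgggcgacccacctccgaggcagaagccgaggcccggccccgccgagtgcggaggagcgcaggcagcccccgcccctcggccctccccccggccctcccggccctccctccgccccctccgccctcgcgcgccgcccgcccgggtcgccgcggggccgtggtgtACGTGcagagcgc
The EGLN1 window held ACGTG once, 13 bases before the start. The EPAS1 window and the HIF1A window shown each held GCGTG once, 117 and 204 bases before the start, and the EGLN3 window held neither. A second HIF1A window in the table, chr14:61697462-61697711, held neither. The table gave 12 such windows for 8 members. Of these, 2 held ACGTG and 3 held GCGTG, while among 35114 windows of the same length 18.5% held ACGTG and 32.2% GCGTG. Elements outside these windows were not searched.

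Values are log2 RMA signals. Each change is the knockdown mean minus the control mean, with its standard error (SE) from limma, and levels are mean ± SD with n = 3 clones. The control arrays lay close together, with a root mean square difference of 0.164 to 0.172 over all probe sets. The knockdown arrays lay 0.309 to 0.438 from each other, and clone 3 was the farthest from the rest. Between knockdown and control arrays the difference was 0.304 to 0.391. The knockdown clones thus differed from each other about as much as from the controls. The WASF3 signal left in knockdown clones 1, 2 and 3 was 43.8%, 57.5% and 23.8% of the control mean. The WASF3 difference was not called (−1.35, adjusted p = 0.102), and clone 3, at 4.52, lay below the array medians of the leukocyte markers given next, so its remainder is not exact. Markers of MDA-MB-231 such as vimentin had array medians of 12.3 to 12.6. The 8 measured leukocyte markers had array medians of 5.01 to 5.39, and a member at or under that level is not shown to be above background. Single leukocyte markers read up to 6.39 (CSF1R in control clone 2), and ARNT, VHL and EGLN3 each had a clone under that on the brightest probe set. An index of RNA quality, the mean signal of the 3′ minus the 5′ probe sets of GAPDH and ACTB, was 1.13 to 1.47 in control and 1.62 to 2.11 in knockdown clones.

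HIF1A was higher and EPAS1 lower in all 3 knockdown clones than in the controls, and EGLN3 was lower on both of its probe sets. Of these, EGLN3 alone was called (limma, adjusted over all probe sets, p under 0.05). On the brightest probe set of each gene, 0 of the 10 members were called higher and 1 lower, where 0.319% of all genes were called higher and 0.42% lower. With an unadjusted p under 0.05, HIF1A was higher and 3 members (EPAS1, EGLN3 and VHL) were lower, with 9.11% and 7.67% of all genes. The groups did not overlap in 3 members that were higher and 3 that were lower, where this held for 12.1% and 12.6% of all genes. EGLN3, EPAS1 and HIF1A had been reported from these data before the set was chosen, so these counts are not independent support.

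**Figure D1:**
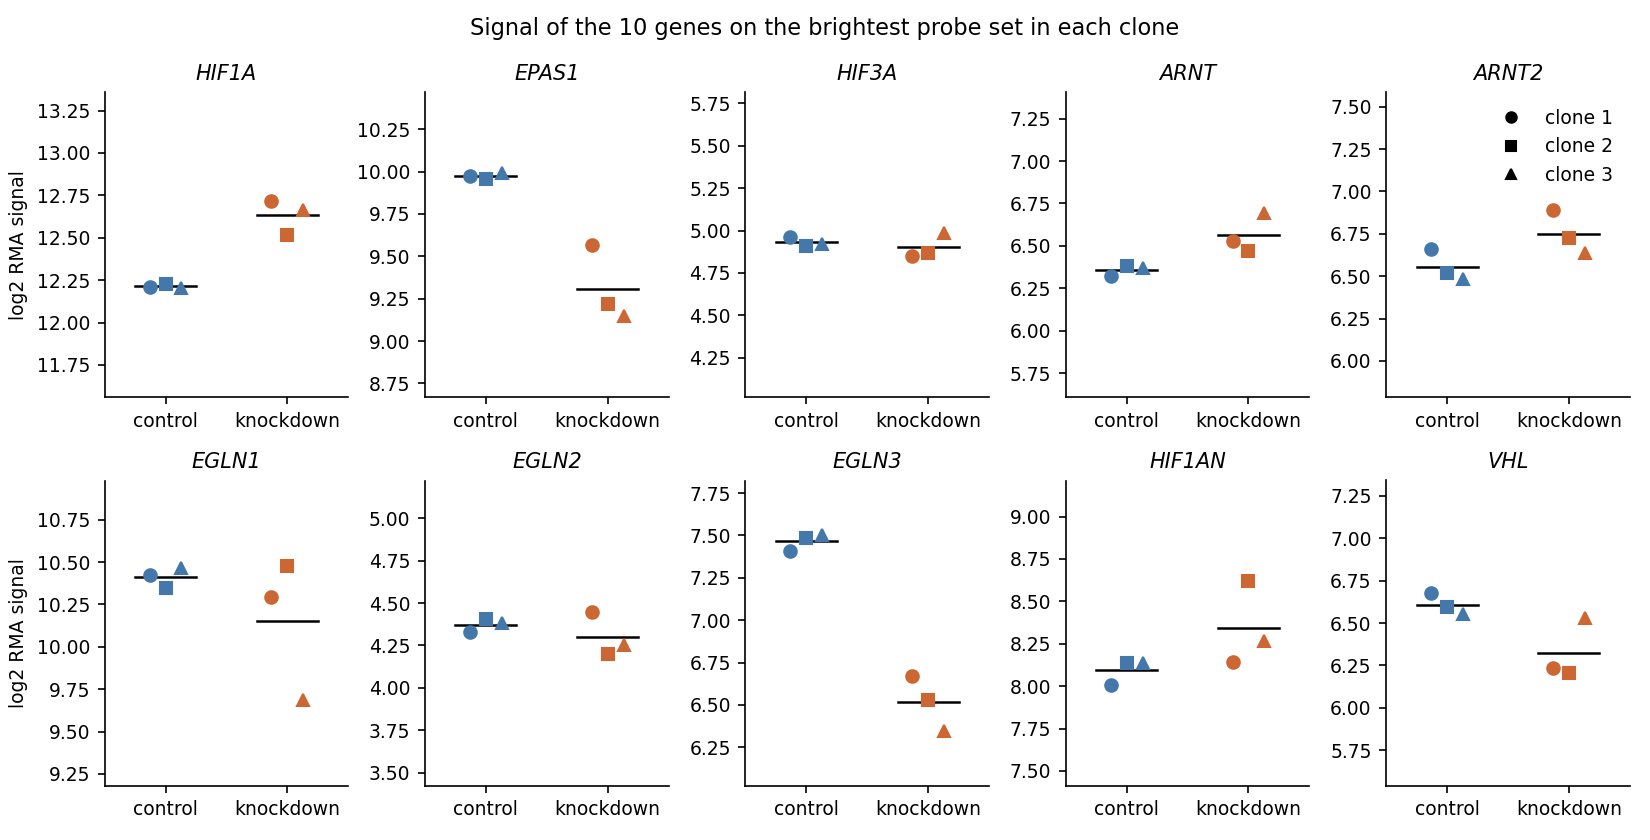
Log2 RMA signal of each of the 10 genes on its brightest probe set, with 1 point per clone (circle, square and triangle for clones 1, 2 and 3), a line at each group mean and vertical axes of equal length. Between the group means HIF1A went from 12.21 to 12.63, EPAS1 from 9.97 to 9.31 and EGLN3 from 7.47 to 6.52.

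Among the alpha subunits, HIF1A, the broadly expressed one, read 12.21, 12.23 and 12.21 in control clones 1, 2 and 3. It read 12.71, 12.52 and 12.66 in knockdown clones 1, 2 and 3. The knockdown clones were all higher and the control clones nearly equal. The HIF1A difference was 0.42 (SE 0.09, 95% interval 0.21 to 0.63), or 134% of the control signal, and missed the threshold (adjusted p = 0.0978). It stayed short of the threshold under every alternative that was run, with differences from 0.31 to 0.48. The lowest value, 0.31 (adjusted p = 0.460), came from the fit that held the RNA index as covariate. HIF1A had a single probe set, so no second one could be compared.

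EPAS1 encodes the alpha subunit also called HIF2A, which is best known from endothelium and renal carcinoma. Its brightest probe set read 9.97, 9.96 and 9.99 in control clones and 9.57, 9.22 and 9.15 in knockdown clones 1, 2 and 3. Every knockdown clone was lower, and clone 1 lay nearest to the controls. The EPAS1 difference was −0.67 (SE 0.12, 95% interval −0.95 to −0.38), or 63.0% of the control signal (adjusted p = 0.0698). EPAS1 passed without knockdown clone 1 (−0.79, adjusted p = 0.0175), without knockdown clone 3 (−0.58, adjusted p = 0.0389) and with array weights (−0.67, adjusted p = 0.0216). It did not pass in the other 11 alternatives, among them those without control clone 1, 2 or 3 (adjusted p = 0.340, 0.319 and 0.320) and the RNA index as covariate (−0.95, adjusted p = 0.186). With the mean of its 3 probe sets EPAS1 gave −0.28 (adjusted p = 0.123). The other 2 probe sets of EPAS1 lay between 2.78 and 3.82 on all arrays, below the array medians of the leukocyte markers, and differed by −0.08 and −0.11. Of 10 endothelial markers, which share EPAS1 as an abundant transcript of that cell type, 0 were called in limma. At an unadjusted p below 0.05 in limma, 2 were higher and 1 lower, beside 9.11% and 7.67% of all genes. The groups did not overlap in 1 that was higher and 2 that were lower, beside 12.1% and 12.6% of all genes. The summed log2 signal of the 10 markers was 55.8 to 56.4 in control and 53.6 to 56.3 in knockdown clones. Of these markers, ESAM read 9.02 in knockdown clones (a difference of 0.02) and PECAM1 7.62 in control and 7.16 in knockdown clones, without overlap (−0.46, adjusted p = 0.556). PECAM1 was 7.57, 7.52 and 6.38 in knockdown clones 1, 2 and 3, so clone 3 carried most of its difference. ROBO4 read 8.54 in control and 7.22 in knockdown clones, without overlap (−1.32, SE 0.26, adjusted p = 0.0818). KDR was higher, at 5.73 in control and 6.16 in knockdown clones (0.43, adjusted p = 0.345). CDH5 was higher by 0.25 without overlap (adjusted p = 0.224), but CDH5, TIE1 and EMCN had group means between 3.00 and 3.41. The part of the endothelial genes in the EPAS1 difference was not tested.

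The changes of HIF1A and EPAS1 were compared directly, as the log2 EPAS1 signal minus the log2 HIF1A signal of the same array. A shift shared by the whole array drops out of this quantity. Against the control mean it was 0.00, −0.03 and 0.03 in control clones and −0.91, −1.06 and −1.28 in knockdown clones 1, 2 and 3. All 3 knockdown clones lay on one side, far outside the control spread (SD 0.03 in control and 0.19 in knockdown clones). The difference between the groups was −1.08 on the log2 scale, a 2.12-fold lower ratio of the EPAS1 to the HIF1A signal. Its p in the exact two-sided permutation test was 0.1, and a test of 3 arrays against 3 cannot go lower. With HIF1A higher and EPAS1 lower in every knockdown clone, this p could not have come out otherwise. It therefore adds no support beyond the 2 single changes. The difference was −1.17 to −0.99 when any single clone was left out, and −1.26 once the RNA index was a covariate. It was −0.70 with the mean of all EPAS1 probe sets, 2 of which were at background.

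**Figure D2:**
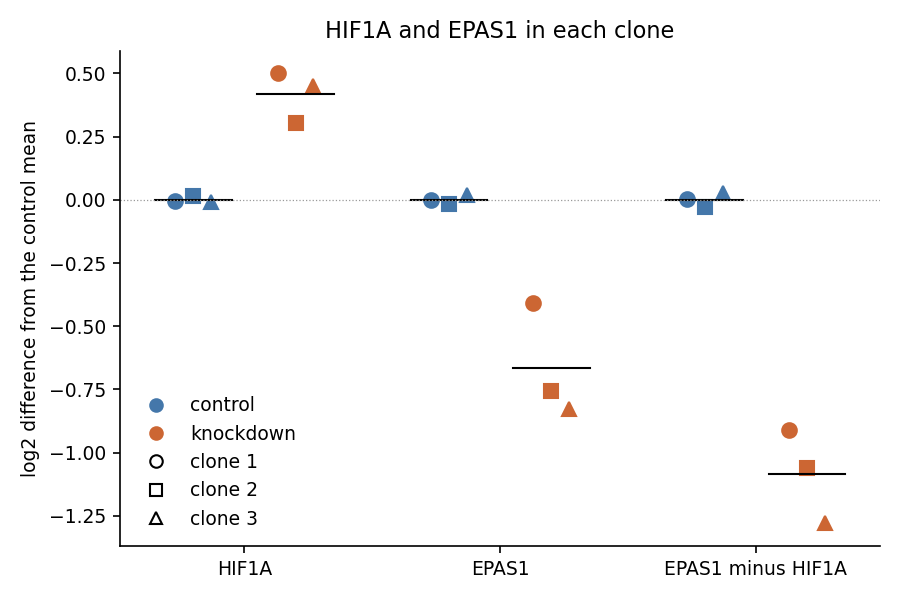
Log2 difference from the control mean of HIF1A, of EPAS1 and of EPAS1 minus HIF1A on their brightest probe sets, with 1 point per clone and lines at group means. Knockdown clones lay at 0.30 to 0.50 for HIF1A, at −0.83 to −0.41 for EPAS1 and at −1.28 to −0.91 for EPAS1 minus HIF1A, and control clones within 0.03 of 0.

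HIF3A, the third alpha subunit, with splice forms that can restrain the others, had 7 probe sets. Its brightest read 4.91 to 4.96 in control and 4.85 to 4.99 in knockdown clones. All 7 had mean signals under 5, so none is shown to be above background. The groups overlapped on all 7, and the HIF3A differences ran from −0.18 to 0.21 with 3 above 0 and 4 below.

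The beta subunits differed little. ARNT, the common partner of the alpha subunits and of the aryl hydrocarbon receptor, read 6.32, 6.38 and 6.37 in control and 6.53, 6.47 and 6.69 in knockdown clones on its brightest probe set. The groups did not overlap there, with a difference of 0.20 (95% interval −0.01 to 0.42, adjusted p = 0.385). The other 2 ARNT probe sets with means above 5 gave 0.01 in both cases, with overlapping groups. ARNT2, a paralogue best known from the nervous system, read 6.66, 6.52 and 6.48 in control and 6.89, 6.72 and 6.64 in knockdown clones, with overlap. The ARNT2 difference was 0.20 (95% interval −0.04 to 0.44, adjusted p = 0.457). These intervals leave room for changes of up to 0.42 and 0.44, as large as that of HIF1A.

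Of the prolyl hydroxylases, EGLN3, whose transcript is strongly induced by HIF, read 7.41, 7.49 and 7.50 in control clones on its brightest probe set. It read 6.67, 6.53 and 6.35 in knockdown clones 1, 2 and 3. All knockdown clones were lower, at −0.79, −0.94 and −1.12 from the control mean. EGLN3 fell by 0.95 (SE 0.11, 95% interval −1.20 to −0.70, adjusted p = 0.0311), to 51.8% of the control signal. The second EGLN3 probe set read 6.68, 6.77 and 6.76 in control and 6.12, 5.47 and 4.34 in knockdown clones. The knockdown clones were again lower but lay far apart, and in clone 3 the signal lay below the array medians of the leukocyte markers. The difference there was −1.43 (SE 0.39, adjusted p = 0.162). The EGLN3 call was lost without control clone 1, 2 or 3 (adjusted p = 0.258, 0.230 and 0.238) and without knockdown clone 2 (adjusted p = 0.0717), with differences from −0.98 to −0.93. It was also lost with the mean of both probe sets (−1.19, adjusted p = 0.0723), and when the RNA index entered as covariate (−1.16, adjusted p = 0.184). In these fits the sign of the EGLN3 difference held.

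EGLN1, the main oxygen sensor of most cells, differed among the knockdown clones. Its brightest probe set read 10.42, 10.35 and 10.46 in control and 10.29, 10.48 and 9.69 in knockdown clones 1, 2 and 3. Clone 3 was low while clone 2 lay at the top of the control range. The EGLN1 difference was −0.26 (SE 0.19, adjusted p = 0.612), and −0.03 without knockdown clone 3. On 2 further EGLN1 probe sets the groups did not overlap, at −0.37 on each (adjusted p = 0.251 and 0.241). The remaining, dim probe set gave −0.06. EGLN2, the hydroxylase known as oestrogen-induced, was represented by 1 probe set at 4.20 to 4.45, below the array medians of the leukocyte markers, with a difference of −0.07 (adjusted p = 0.800). A further 2 probe sets list EGLN2 together with other genes and were not used, so its level rests on this dim probe set.

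HIF1AN, the asparaginyl hydroxylase also called FIH, read 8.00, 8.13 and 8.14 in control and 8.14, 8.62 and 8.27 in knockdown clones. The knockdown clones were higher, clone 1 by so little that it nearly met the top control clone. The HIF1AN difference was 0.25 (95% interval −0.06 to 0.56, adjusted p = 0.471), and the other 2 probe sets gave 0.16 and 0.19 with overlapping groups. VHL, which recognises the hydroxylated alpha subunit, read 6.68, 6.59 and 6.55 in control and 6.24, 6.21 and 6.53 in knockdown clones 1, 2 and 3. Clone 3 lay just under the lowest control clone. The VHL difference was −0.28 (95% interval −0.54 to −0.02, adjusted p = 0.315), and the second VHL probe set, at 3.08 to 3.42, gave −0.05.

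**Figure D3:**
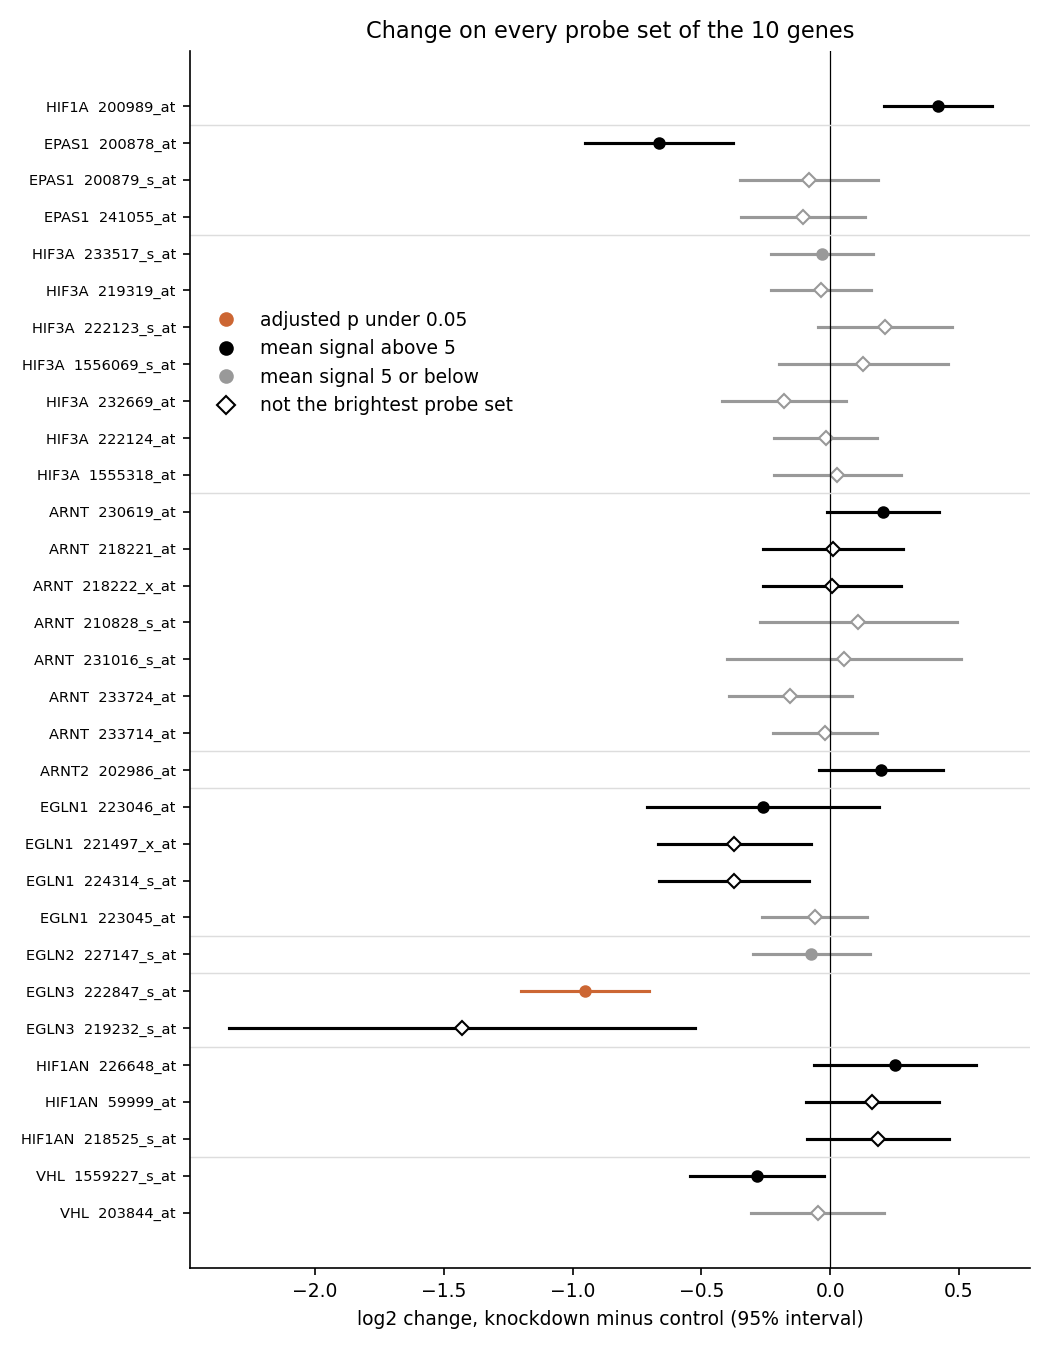
Log2 change, knockdown minus control, with its 95% interval from the limma fit for all 31 probe sets, where filled circles mark the brightest probe set of each gene, orange an adjusted p under 0.05 and grey a mean signal of 5 or below. One EGLN3 probe set was called, and the intervals of HIF1A (0.21 to 0.63) and EPAS1 (−0.95 to −0.38) lay on opposite sides of 0.

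Counted over probe sets, 1 of the 31 was called lower and 0 higher, where 0.308% of all probe sets were called lower. The groups did not overlap in 9 of the 31, where they did not in 21% of all probe sets. A mean signal above 5 was reached by 15 of the 31, and 1 or more such probe sets were present for 8 of the 10 genes, all but HIF3A and EGLN2, not counting the 2 probe sets that EGLN2 shares with other genes.

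Other components of the pathway were read from lists written with earlier results of these data known. Of 15 measured VHL ligase partners and other regulators of alpha subunit stability, 0 were called, with a median change of −0.07 beside −0.01 for all genes. The ubiquitin ligase SIAH2, which targets EGLN proteins, gave −0.55 (SE 0.12, adjusted p = 0.109), and the chaperone HSP90AA1, which binds HIF1A, 0.22 (adjusted p = 0.378). Of 12 coactivators and antagonists 0 were called (median −0.02), with the Mediator kinases CDK19 at −0.42 (adjusted p = 0.0958) and CDK8 at 0.45 (adjusted p = 0.150). Of 11 other bHLH-PAS factors, relatives of the HIF subunits, 1 was called higher and 0 lower (median 0.02), where 0.319% and 0.42% of all genes were. The called gene was AHRR, the repressor of the aryl hydrocarbon receptor that also pairs with ARNT, at 8.19 ± 0.26 in knockdown and 7.15 ± 0.08 in control clones (1.03, SE 0.14, adjusted p = 0.0378).

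Of 22 other oxygenases that, like the EGLN enzymes, use 2-oxoglutarate, 0 were called. Their median was −0.07, and the groups did not overlap in 8 that were lower and 0 that were higher, beside 12.6% and 12.1% of all genes. P4HA1 and P4HA2 of the 8, and KDM3A, are also among the targets shared by HIF1A and EPAS1 and count in both lists. The lysyl hydroxylases PLOD1 and PLOD2, which modify collagen, gave −0.60 (SE 0.10, adjusted p = 0.0529) and −0.53 (SE 0.10, adjusted p = 0.0757). Of 8 upstream regulators of HIF1A 0 were called, with the transcription factor SP1 at −0.39 (adjusted p = 0.103) and the kinase RPS6KB1 at 0.67 (adjusted p = 0.180). In limma 5 of the 68 genes of these 5 lists were higher and 11 lower with an unadjusted p below 0.05, beside 9.11% and 7.67% of all genes.

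Of 44 measured HIF targets, 37 had a lower mean in the knockdown clones, where 10362 of 19775 genes did. Of 16 measured targets known to prefer HIF1A, 15 had a lower mean and 1 was called, the glycolytic regulator PFKFB4 (−0.97, SE 0.09, adjusted p = 0.0172). The median change of the HIF1A-preferring list was −0.33, and −0.40, −0.42 and −0.32 in the individual knockdown clones 1, 2 and 3. Of 22 targets shared by both factors, 19 had a lower mean and 4 were called lower, with a median of −0.55. They were the lipase inhibitor ANGPTL4 (−1.23, SE 0.08, adjusted p = 0.00578), the mTOR inhibitor DDIT4 (−1.16, SE 0.13, adjusted p = 0.0311) and the transcriptional repressor BHLHE40 (−0.95, SE 0.12, adjusted p = 0.0317). The remaining one, INSIG2, a brake on sterol synthesis, was named after its value was seen (−0.75, adjusted p = 0.0317). Of 6 measured targets known to prefer EPAS1, 3 had a lower and 3 a higher mean and 0 were called in limma (median −0.14). At an unadjusted p under 0.05 in limma, 3 were lower and 0 higher, beside 7.67% and 9.11% of all genes. The collagenase MMP14 gave −0.48 (adjusted p = 0.0582) and EPO, at background level, −0.34 (adjusted p = 0.278). Over the 44 genes of the 3 lists, 5 were called lower and 0 higher, where 0.42% and 0.319% of all genes were. The groups did not overlap in 27 that were lower, where 12.6% of all genes were lower without overlap. Of 9 luminal breast markers, 0 were called in limma and 6 had a lower mean, with a median of −0.25. In limma 4 were lower at an unadjusted p under 0.05 without overlap. Of all genes 7.67% were lower at that p, and 12.6% were lower without overlap. The keratins KRT8, KRT18 and KRT19 gave −0.58, −0.47 and −0.38. The 3 with a higher mean were EPCAM, CDH1 and PGR, at 0.50, 0.47 and 0.01 (adjusted p = 0.498, 0.829 and 0.985). CDH1 read 7.33, 4.44 and 4.47 in knockdown clones 1, 2 and 3 beside a control mean of 4.94, so only clone 1 was higher. EPCAM in knockdown clone 3, at 7.38, lay below its control mean of 7.48. PGR, and FOXA1 among the 4 that were lower, had group means of 3.05 to 3.32, at background. The summed log2 signal of the 9 markers was 67.4 to 68.9 in control and 64.1 to 70.8 in knockdown clones. The part of these markers in the target changes was not tested. The knockdown clones also had the higher RNA index. With that index as covariate 0 of the 44 were called, with a median of −0.25 beside −0.39 without it. That fit called 1 of all genes, where the main fit called 146. The count of 5 became 0 without control clone 1, 2 or 3, 1 without knockdown clone 2, 11 without knockdown clone 1 and 16 without knockdown clone 3. In the same order, 2, 3, 2, 20, 707 and 1225 of all genes were called.

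**Figure D4:**
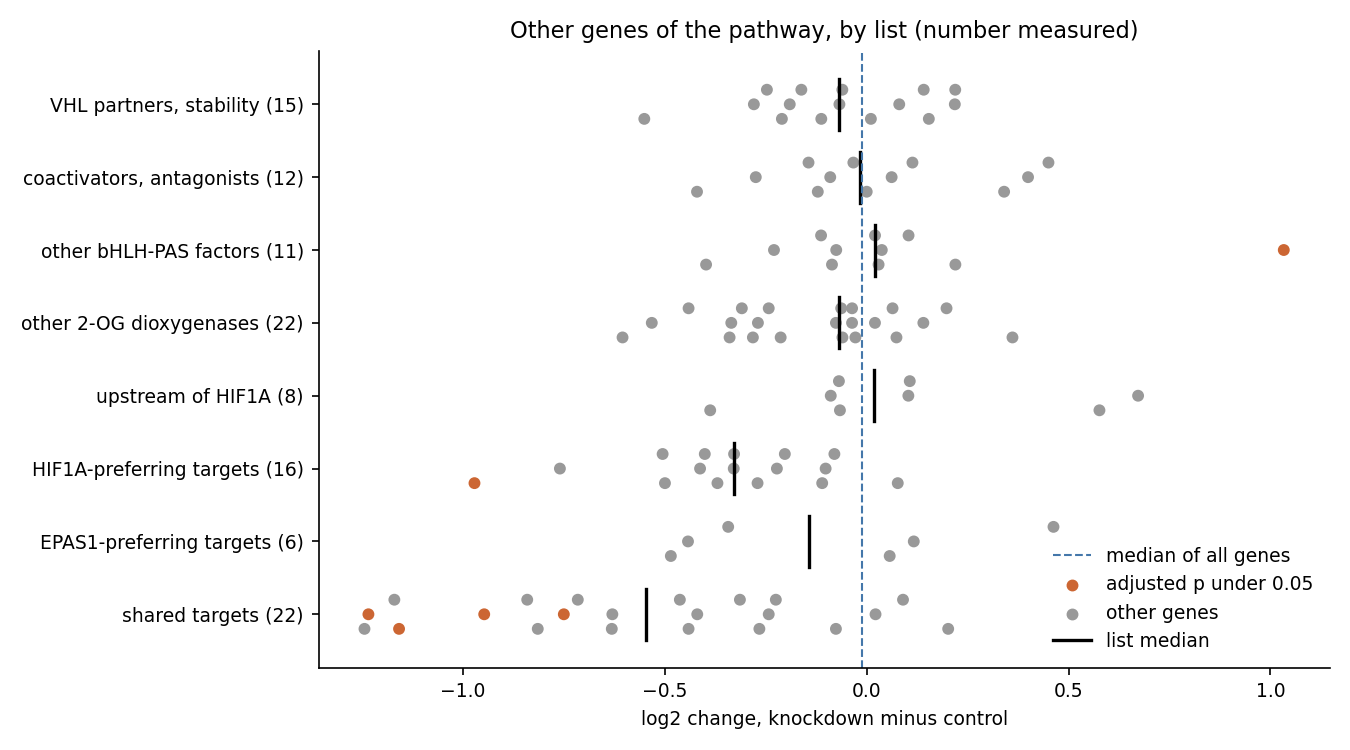
Log2 change, knockdown minus control, of each measured gene of 8 pathway lists on its brightest probe set, with orange points for an adjusted p under 0.05, black lines at list medians and a dashed line at the median of all genes (−0.01). The lists of HIF1A-preferring and shared targets have medians of −0.33 and −0.55, and the other 6 lie between −0.14 and 0.02.

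The genes with the most similar profiles over the 6 arrays were taken by the root mean square difference of centred log2 values, among 13042 other genes with a mean above 5. For HIF1A they were PLEKHM1, KANK1 and ELL2, at 0.03 each, with changes of 0.40, 0.44 and 0.40. For EPAS1 they were TMBIM4, RAB31 and RRAGC, at 0.04, 0.04 and 0.05, with changes of −0.67, −0.70 and −0.60. For EGLN3 they were EFHD2 at 0.03 and SOX4 and PCDHB14 at 0.10 each. These 3 genes were called lower, by −0.98, −0.78 and −0.95 (adjusted p = 0.0298, 0.0491 and 0.0311), where 0.42% of all genes were called lower. All genes named here were chosen for their likeness to a member on these same arrays. Changes and calls like those of the member follow from that choice and are not separate support.

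The neighbours of these members along the chromosomes were also read, as the 10 genes with a mean above 5 on each side in RefSeq order. The shares set beside them are over all genes, dim ones included, so the 2 sets are not alike. The 20 neighbours of HIF1A on chromosome 14 had a median change of 0.24, and 15 of them were higher, where 9413 of 19775 genes were. The 20 neighbours of EPAS1 on chromosome 2 had a median of 0.34 and 17 were higher, so EPAS1 was lower among genes that were mostly higher. The 20 neighbours of EGLN3 on chromosome 14 had a median of −0.02 and 10 were higher. Of these neighbours 0 were called in limma. At an unadjusted p under 0.05, 5 neighbours of HIF1A were higher and 1 lower, 6 of EPAS1 were higher and 0 lower, and 2 of EGLN3 were higher and 2 lower, beside 9.11% and 7.67% of all genes. The part of position in the change of HIF1A was not tested.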

How the data were processed

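Biotin-labelled RNA of 6 clones was hybridised to Affymetrix arrays, per the labels' protocols. The authors deposited log2 signals. Per the submitters' processing notes these were computed by RMA with Expression Console 1.0 of Affymetrix. RMA equalises the distribution of all arrays, which hides any shift common to most transcripts, and 3 arrays per group limit the precision. Nothing in the labels names a batch.

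Gene names came from the platform annotation, with symbols updated by gene identifier from RefSeq (41037 of 41091 probe sets with 1 symbol matched). Probe sets with several symbols (1801) named no gene. Values were fitted with limma 3.58.1 in R 4.3.3 (lmFit and eBayes, group as the only term, two-sided), with Benjamini-Hochberg adjustment over 54613 probe sets, control probe sets left out. The fit was tested on simulated data. The probe set with the highest mean stood for a gene, which was called at an adjusted p under 0.05. Differences between the changes of 2 genes were tested by exact permutation. The p-values measure the spread between these clones.

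The members and lists were chosen with earlier results of these data known. The text names all members, in each pathway list up to 3 called genes by size or, with 0 called, the 2 with the smallest p, WASF3, and the 3 nearest profiles of HIF1A, EPAS1 and EGLN3. The antisense RNAs of HIF1A were listed but not analysed here. Alternatives left out each clone, averaged probe sets, dropped probe sets that match several transcripts or are dim, changed the prior, weights or centring, or added the RNA quality index or the clone number as a block.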

Additional observations from a re-analysis of the deposited data

How the results depend on the processing

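HIF1A kept its direction and stayed short of the threshold in all 14 alternatives, and EPAS1 kept its direction in all 14 and passed in 3. With array weights EPAS1 gave −0.67 and passed. Leaving out single clones gave 0.38 to 0.48 for HIF1A, −0.79 to −0.58 for EPAS1 and −1.17 to −0.99 for EPAS1 minus HIF1A. The number of members called lower was 1 with all clones and ran from 0 to 2 when clones were left out. It was 2 with array weights and 0 when the probe sets of a gene were averaged, without probe sets ending in _x_at or _s_at (which removes EGLN3), with the RNA quality index and with the replicate block. Counts of HIF targets were not among the results planned for these alternatives. HIF targets called lower numbered 5 and ran from 0 to 16 over left-out clones, with 0 to 1 called higher. They numbered 9 with the mean of all probe sets, 3 without _x_at or _s_at probe sets, 14 with array weights, and 0 with the index and 0 with the block. In the same order these fits called 238, 88, 714, 1 and 3 of all genes, beside 146 in the main fit. HIF3A, at background level, changed sign to 0.0149 with averaged probe sets and 0.0454 with the index. The other members kept their direction in the alternatives that measured them. Calls over all genes went from 146 to 2, 3 and 2 without control clone 1, 2 or 3, and to 707, 20 and 1225 without knockdown clone 1, 2 or 3, with fewer arrays in each fit. The cause of the other shifts was not tested.

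Clones share only a number between groups. Same-numbered clones deviated with correlations of −0.07, −0.10 and −0.04 over all probe sets, so the numbers do not pair them. With the replicate block the differences of HIF1A (0.42, adjusted p = 0.246) and EPAS1 (−0.67, adjusted p = 0.186) are the same by construction, EGLN3 was not called (adjusted p = 0.152), and 3 genes were called in all. EPAS1 minus HIF1A gave an exact paired p of 0.25, the smallest that 3 pairs allow. This p too was fixed by HIF1A being higher and EPAS1 lower in every knockdown clone.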
